A study of Mus musculus with 1617 samples.

Results

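Single brain macrophages of the mouse were sorted as CD45+F4/80+CD11b+Ly6C-, captured on Fluidigm C1 chips and made into Nextera XT libraries, so that each sample is 1 cell. The cells described here carried the labels hippocampus and microglia and an age written A2M, an abbreviation that the labels do not spell out. Strain, genotype, sex and treatment were not given in the sources used here. Of 1617 cells in the series, 83 belonged to this group, all with paired-end reads. They were chosen by their own measured level of Hspb1 in TPM, a transcript abundance that corrects for transcript length and sets every cell to the same total. The Hspb1-high class held the 26 cells at 100 TPM or more, and the Hspb1-low class held the 31 cells below 1 TPM. Another 26 cells lay between them and entered neither class. Both classes came from 1 labelled group, and no animal or preparation was named for any cell. The cells were therefore not replicates, no difference was tested, and every value below describes these cells only.

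Hspb1 encodes a small heat shock protein, called HSP25 in the mouse and HSP27 in humans. Small heat shock proteins hold unfolding proteins in a soluble state without using ATP, and the HSP70 and HSP110 machines then refold them with the help of HSP40 proteins. Heat, oxidants and other insults to protein folding activate the transcription factor HSF1, which binds heat shock elements in the promoters of many of these genes. Microglia are the resident macrophages of the brain parenchyma, and are recognised by genes such as P2ry12, Tmem119 and Sall1.

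Promoter sequences are shown for 4 genes, Hspb1 itself and 3 chaperone genes with a higher mean in the high class, because the same short motif occurs in each. They are the 250 bases before the transcription start, from RefSeq on GRCm38.p6, written 5′ to 3′ on the strand of the gene, and capitals mark matches to the 8-base heat shock element cores GAANNTTC and TTCNNGAA. Each of these cores is its own reverse complement, so both strands were covered, and neighbouring matches may overlap.

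Hspb1, chr5:135887669-135887918, plus strand: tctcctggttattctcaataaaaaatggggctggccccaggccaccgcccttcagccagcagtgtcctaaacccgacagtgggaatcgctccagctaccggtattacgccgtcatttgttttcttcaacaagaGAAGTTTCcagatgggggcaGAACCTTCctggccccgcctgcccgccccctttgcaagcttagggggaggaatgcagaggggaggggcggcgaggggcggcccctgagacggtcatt

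Hspa1b, chr17:34959239-34959488, minus strand: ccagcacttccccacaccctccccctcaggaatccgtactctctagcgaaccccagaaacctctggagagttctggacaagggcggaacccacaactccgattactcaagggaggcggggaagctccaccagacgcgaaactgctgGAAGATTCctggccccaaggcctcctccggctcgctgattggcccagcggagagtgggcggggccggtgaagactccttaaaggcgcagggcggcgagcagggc

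Dnajb6, chr5:29735648-29735897, plus strand: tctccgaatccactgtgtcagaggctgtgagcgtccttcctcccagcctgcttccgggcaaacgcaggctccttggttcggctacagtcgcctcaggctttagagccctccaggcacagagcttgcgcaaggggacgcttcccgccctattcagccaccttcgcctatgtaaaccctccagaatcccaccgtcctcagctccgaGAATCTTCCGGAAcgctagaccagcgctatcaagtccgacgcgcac

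Hsph1, chr5:149636337-149636586, minus strand: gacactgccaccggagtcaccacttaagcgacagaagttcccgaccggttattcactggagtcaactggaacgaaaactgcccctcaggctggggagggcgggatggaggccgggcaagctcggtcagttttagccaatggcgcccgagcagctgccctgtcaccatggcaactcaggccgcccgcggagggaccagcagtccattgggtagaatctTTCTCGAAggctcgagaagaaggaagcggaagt

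The Hspb1 promoter held 2 separate matches, the nearer of which began 97 bases before the start, and the Hspa1b promoter held 1. The 2 matches of Dnajb6 began 46 and 41 bases before the start and overlapped, and that of Hsph1 began 33 bases before it. Over the whole table of 32851 promoters, each of 300 bases from 250 before to 50 after the start, 4946 (15.1%) held at least 1 match. Of 61 chaperone genes other than Hspb1 with a promoter in that table, 19 held a match in at least 1 of their promoters. That count is of genes, some with several listed promoters, so it cannot be set beside the share of single promoters. A match describes the letters in this window and is not evidence of binding.

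Hspb1 lies on chromosome 5 of GRCm38 from 135887919 to 135889563 on the plus strand. In the high class its values ran from 206.31 to 37432 TPM with a median of 3778 TPM, and 18 of the 26 cells were at 1000 TPM or more and 7 at 10000 TPM or more. In the cell with the most Hspb1, this 1 gene made up 3.74% of the cell's total. All 31 cells of the low class were listed at 0, so no fold can be given. The cells between ran from 1.5 to 20.83 TPM, and no cell lay between 20.83 and 206.31 TPM. These values chose the classes and are given as a description.

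**Figure D1:**
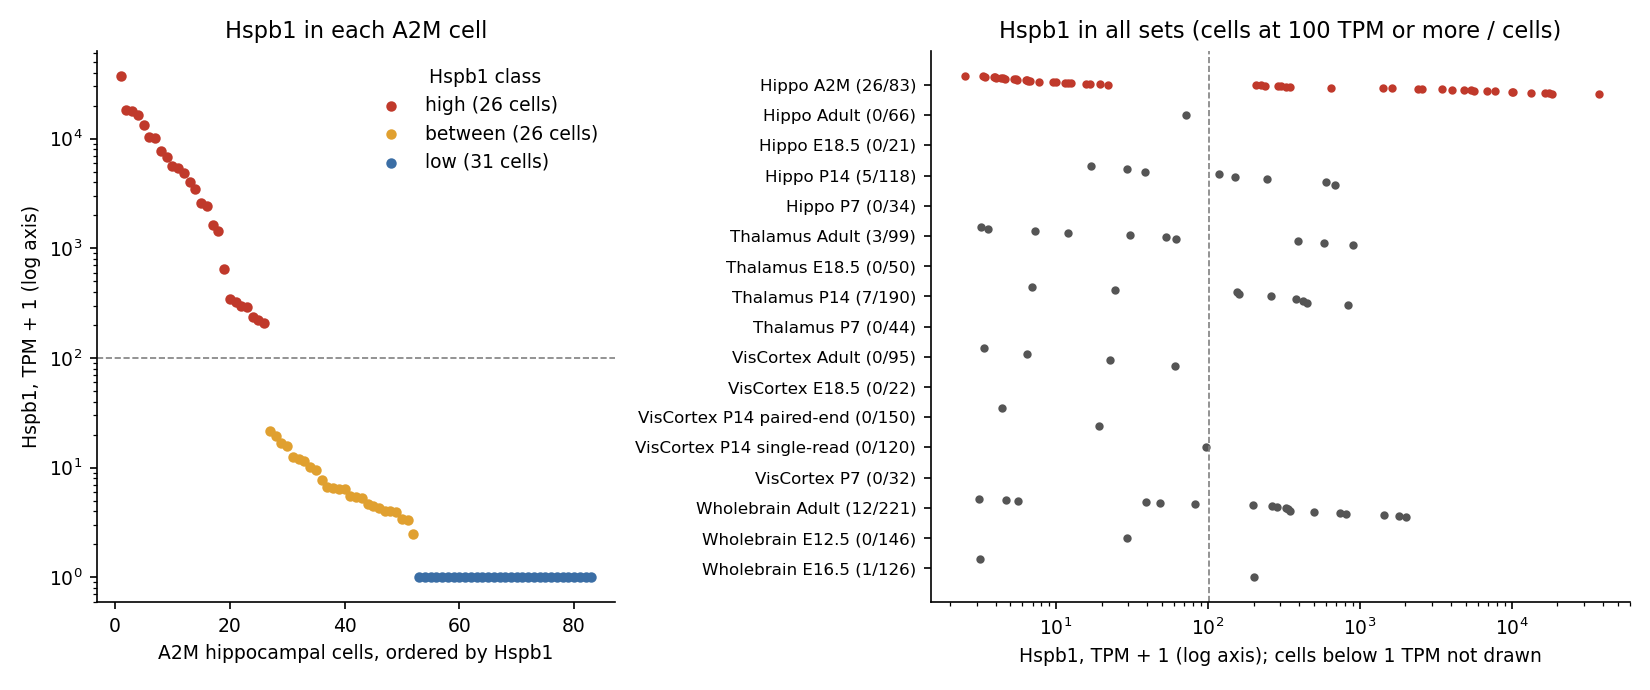
Left, Hspb1 in each of 83 A2M hippocampal cells in descending order, as TPM + 1 on a log axis, with the Hspb1-high, between and low classes in colour. Right, cells at 1 TPM or more in each of 17 sets of cells, with the number at 100 TPM or more (dashed line) and the number of cells in brackets. The 26 high cells are separated by a gap from the 26 between, and the highest cell outside A2M stands at 2027 TPM.

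Hspb1 was rare elsewhere in the series. Among 1534 cells of the other 16 sets (age, region and read layout), 28 were at 100 TPM or more, the highest at 2027 TPM, a level that 16 of the A2M cells exceeded. The share at 100 TPM or more was 31.3% of the A2M cells, with an exact Clopper-Pearson 95% interval of 21.6 to 42.4% that covers counting error over cells only. It was 5.43% of whole-brain adult cells, 4.24% of hippocampal P14 cells and 0% of 66 hippocampal adult cells, where 3 counts of the total, the limit taken for a count of 0, come to 4.55% and the exact interval reaches 5.44%. Read layout was not matched in that comparison. Of 353 paired-end cells outside A2M, 0 were at 100 TPM or more, and the highest held 18.2 TPM. Those cells were all labelled E18.5, P7 or P14, and no paired-end set was labelled adult, so age was not matched there.

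A processed pseudogene, Hsp25-ps1 on chromosome 13, is a near copy of Hspb1 to which its reads could be assigned. It was at 1 TPM or more in 10 of 26 high cells, with a highest value of 83.2 TPM, and in 5 of 31 low cells, with a highest value of 7.3 TPM. The genes that flank Hspb1 were also examined. Mdh2, a malate dehydrogenase, averaged 215.5 TPM in high cells and 203.4 TPM in low cells. Srrm3 averaged 0.0546 TPM in high cells and was listed at 0 in all low cells, and Ywhag averaged 3.88 TPM in high cells and 22.3 TPM in low cells, where 1 cell held 582 TPM.

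Both classes held microglial genes at high levels. P2ry12, a purinergic receptor, ran from 11.6 to 8966 TPM in high cells with a median of 5307 TPM, and from 230.9 to 12274 TPM in low cells with a median of 4964 TPM. Genes seen per cell, at 1 TPM or more, had a median of 2229 in high cells (range 1215 to 3491) and 2365 in low cells (range 705 to 3126). In the order of the sample titles, 11 high cells fell among the first 42 A2M cells and 15 among the last 41, against 19 and 12 of the low cells. What the title numbers stand for is not given, and their part in the results was not tested.

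A pair of cells stood apart. The high cell numbered 64 had the most Hspb1 (37432 TPM) and the fewest genes of its class (1215), with P2ry12 at 11.6 TPM, Sall1 at 0, Apoe at 117455 TPM and H2-Ab1 at 32292 TPM. The low cell numbered 83 held Folr2 at 2401 TPM, Pf4 at 1748 TPM, Cbr2 at 1984 TPM, Mrc1 at 251.9 TPM and Lyz2 at 80692 TPM, with Tmem119 and Sall1 at 0. Folr2, Pf4, Cbr2, Mrc1 and Ms4a7 are markers of border-associated macrophages, which the sort also admits. Ms4a7 was at 348 TPM in cell 64 and 371 TPM in cell 83, and was listed at 0 in each of the other 81 cells. Folr2, Pf4, Cbr2 and Mrc1 were listed at 0 in cell 64. Summed over the 14 border-associated markers, of which 4 were at 0 in every cell, the level ran from 0 to 1155 TPM in high cells with a median of 0, and from 0 to 7862 TPM in low cells with a median of 3.39 TPM. The results below are given with these cells, and without them where they decide a value.

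Markers of most cell types outside the macrophage lineage were sparse, with exceptions on the B cell and neutrophil lists. Ighm, the immunoglobulin mu chain gene, averaged 523 TPM in high cells and 443 TPM in low cells, and was seen in 22 of 26 and 26 of 31 cells. The sum over the B cell list, of which 5 markers were at 0 in every cell, had a median of 426 TPM in high cells (range 0 to 2221) and 503 TPM in low cells (range 0 to 1424). On the neutrophil list 9 markers were at 0 in every cell. Its sum had a median of 85 TPM in high cells and 48.8 TPM in low cells, with highest values of 740 and 785 TPM. Slc1a3, a glutamate transporter gene of astrocytes, was seen in 10 of 26 high cells and 13 of 31 low cells. The part of these genes in the results was not tested. All 6 erythroid markers and 11 of 13 neuronal markers were at 0 in every A2M cell, and the summed neuronal level reached 5.54 TPM in high cells and 80.5 TPM in low cells. Of 12 oligodendrocyte lineage markers 8 were at 0 in every cell, and the sum of the rest had a median of 0 in both classes and highest values of 518 TPM in high cells and 388 TPM in low cells. Ccr2, a chemokine receptor of monocytes, and Itgax, an integrin of dendritic cells, were listed at 0 in all 83 cells. Xist, the RNA of the inactive X chromosome, was also at 0 in all 83 cells, while the Y-linked gene Ddx3y was seen in 9 of 26 high cells and 15 of 31 low cells and Eif2s3y in 7 of 26 and 13 of 31. Both Y-linked genes counted as lower by the rule below, as did Cd79b of the B cell list. Cnp of the oligodendrocyte lineage list and Ly6a of the endothelial list counted as higher.

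Genes were compared by 2 quantities. The log2 ratio is that of mean TPM with 1 TPM added, high over low, and the log-mean difference is that of mean log2(TPM + 1), high minus low. A gene is called higher or lower where both quantities reached 1.5-fold in that direction, and measured where its mean was 5 TPM or more in either class. Of 8692 measured genes, 1048 (12.1%) were higher and 1046 (12%) lower. The median log2 ratio over the 8692 genes was -0.06. By the ratio of means alone, 29.9% were higher and 34.1% lower, 64.1% in either direction. Few genes seen in nearly every cell were among them. Of the measured genes at 1 TPM or more in at least 90% of A2M cells, 10 (4.52%) were higher and 6 (2.71%) lower, and their median absolute log2 ratio was 0.17.

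Some chaperone genes were higher in the high class and others were lower. Of 60 measured genes in the chaperone lists, Hspb1 left out, 13 (21.7%) were higher, against 12.1% of all measured genes, and 7 (11.7%) were lower, against 12%. Their median log2 ratio was 0.10. Without cells 64 and 83 the counts were 10 higher and 10 lower. By the ratio of means alone 18 of the 60 were higher and 12 lower, to be read against the shares of 29.9% and 34.1% over all measured genes. A promoter was listed for 48 of the 60, but not for Hsp90ab1 and Rrad, which were higher, or Hspa9, which was lower. Of the 18 measured chaperone genes with a heat shock element match in at least 1 promoter, 8 were higher and 0 lower. For Dnajb4, 1 of these, another listed promoter held no match. Of the 30 with a promoter but no match, 3 were higher (Dnajb1, Stip1 and Ptges3) and 6 lower. Over all measured genes, with or without a match, 12.1% were higher and 12% lower. The part of the match in these counts was not tested. Without cells 64 and 83 the counts were 5 higher and 1 lower with a match, as Hspa1b, Bag3 and Dnajb4 were no longer called, and 2 higher and 8 lower without one.

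Other small heat shock protein genes were at 0 in most cells of both classes. Of the 10 genes on that list, Hspb1 included, 4 were listed at 0 in every A2M cell. Cryab, the lens and muscle alpha-B-crystallin, was at 0 in all high cells and averaged 6.33 TPM in low cells. Hspb6 was at 0 in all high cells and averaged 25.2 TPM in low cells, from 2 cells. Hspb3 averaged 98.7 TPM in high cells and 52.6 TPM in low cells, and was seen in 10 of 26 and 7 of 31 cells.

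Hsph1, the HSP110 nucleotide exchange factor of HSP70, was higher in the high class. It ran from 0 to 633 TPM in high cells with a median of 65.8 TPM, and from 0 to 192.7 TPM in low cells with a median of 0.56 TPM. The classes overlapped, since 9 high cells were below 1 TPM, but 12 high cells and 4 low cells reached 100 TPM. The log2 ratio of Hsph1 was 2.38 and its log-mean difference 2.53. The cells between averaged 125.5 TPM, against 162.1 TPM in high cells and 30.3 TPM in low cells.

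Hspa1a and Hspa1b encode the stress-inducible HSP70 and are near-identical, so single values of either are uncertain. Their promoters had 296 of 300 bases the same, which does not show how reads of either transcript were assigned. Hspa1b ran from 0 to 15341 TPM in high cells with a median of 1467 TPM, and from 1 to 5116 TPM in low cells with a median of 1001 TPM. Its log2 ratio was 0.75, and 0.41 without cell 64, which held the highest value, and the ratio then lay within 1.5-fold. Hspa1a ran from 301 to 5519 TPM in high cells with a median of 1455 TPM, and from 0.7 to 5928 TPM in low cells with a median of 838 TPM. All 26 high cells and 25 of 31 low cells were at 100 TPM or more for Hspa1a, so the lowest values belonged to the low class. The log2 ratio of its means was 0.42, within 1.5-fold, and its log-mean difference was 1.73. Hspa8, the constitutive HSP70, averaged 7859 TPM in high cells and 5709 TPM in low cells, a log2 ratio of 0.46.

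**Figure D2:**
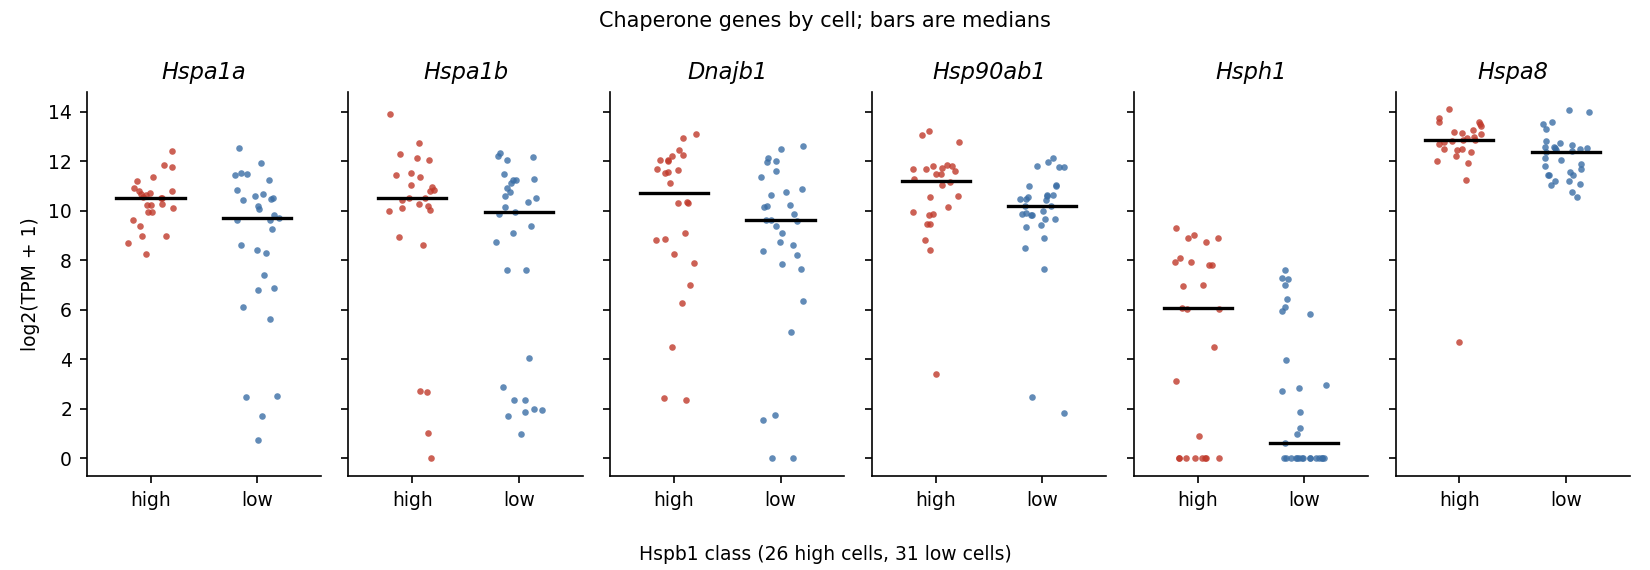
Expression of 6 chaperone genes as log2(TPM + 1) in each of 26 Hspb1-high cells (left, red) and 31 Hspb1-low cells (right, blue), with black bars at the medians. The classes overlap for each gene, and for Hspa1a only low cells lie below 300 TPM.

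Of the HSP40 genes, which deliver clients to HSP70, 3 of 12 measured (25%, against 12.1% of all measured genes) were higher and 0 lower, against 12%. Dnajb1 ran from 4.16 to 8683 TPM in high cells with a median of 1765 TPM, and from 0 to 6267 TPM in low cells with a median of 788 TPM. Its log2 ratio was 0.77, and 0.57, just within 1.5-fold, without cells 64 and 83. The cells between averaged 1101 TPM, below the 1470.1 TPM of low cells, so the level of Dnajb1 did not follow the order of the classes. Dnajb6 averaged 154.05 TPM in high cells and 80.5 TPM in low cells, and Dnajb4 averaged 199.4 TPM and 122.7 TPM in the same order of classes.

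Of 26 measured HSP90 genes, chaperonins and cochaperones, 6 (23.1%) were higher and 5 (19.2%) lower, against 12.1% and 12% of all measured genes. Hsp90ab1, the constitutive HSP90, ran from 9.64 to 9458 TPM in high cells with a median of 2382 TPM, and from 2.55 to 4436 TPM in low cells with a median of 1181 TPM. The cells between averaged 1974 TPM, against 2725 TPM in high cells and 1504 TPM in low cells. Hsp90aa1, the inducible form, averaged 5372 TPM in high cells and 4965 TPM in low cells, a log2 ratio of 0.11. The HSP90 partners Stip1 (124.9 against 60.5 TPM in low cells), Fkbp4 (124.3 against 56.7 TPM), Ptges3 (89.1 against 30.3 TPM) and Chordc1 (123.2 against 57.8 TPM) were also higher. The chaperonin subunit Tcp1 was lower, with a mean of 65.8 TPM in high cells and 157.6 TPM in low cells, as were the mitochondrial HSP70 Hspa9, at 29.6 and 79.2 TPM, and the HSP70 exchange factor Hspbp1, at 0 in all high cells and a mean of 37.7 TPM in low cells. Bag3, a cochaperone that binds small heat shock proteins, averaged 143.97 TPM in high cells and 90.4 TPM in low cells, with 13 of 26 and 14 of 31 cells at 1 TPM or more. The cells between averaged 22.5 TPM, below both classes, and without cell 64 the log2 ratio of Bag3 was 0.49, within 1.5-fold.

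Most A2M cells of every class held inducible HSP70 RNA. Hspa1a and Hspa1b together reached 100 TPM in 26 of 26 high cells, 24 of 26 cells between and 28 of 31 low cells, with lowest sums of 668, 3.04 and 2.95 TPM in that order. The sum of Hspa1a and Hspa1b had a median of 3390.4 TPM in high cells, 3626 TPM in the cells between and 2319.8 TPM in low cells. Of 75 chaperone genes in the table, the number at 100 TPM or more per cell had a median of 23 in high cells and 21 in low cells. The A2M mean of Hspa1a was 1660 TPM, the highest of the 17 sets, and the next was 282 TPM in whole-brain adult cells. Hspa1b, Dnajb1, Hsp90aa1, Atf3 and Jun also had their highest set mean in A2M. Hsph1 averaged 101.4 TPM in A2M and 98.4 TPM in whole-brain adult cells, and Hspa8 ranked 2. The A2M cells had paired-end reads and the whole-brain adult cells single reads. Age, region and read layout cannot be told apart in this ranking. Across the 83 cells, over the same Hspb1 values that formed the classes, Spearman's rho of 7 chaperone genes with Hspb1 ran from 0.06 for Hsp90aa1 to 0.32 for Hsph1. Within the 26 high cells it ran from -0.07 for Hspa8 to 0.45 for Dnajb1, with 0.15 for Hsph1. Hsf1, which encodes the heat shock factor itself, averaged 45.2 TPM in high cells and 45.3 TPM in low cells.

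**Figure D3:**
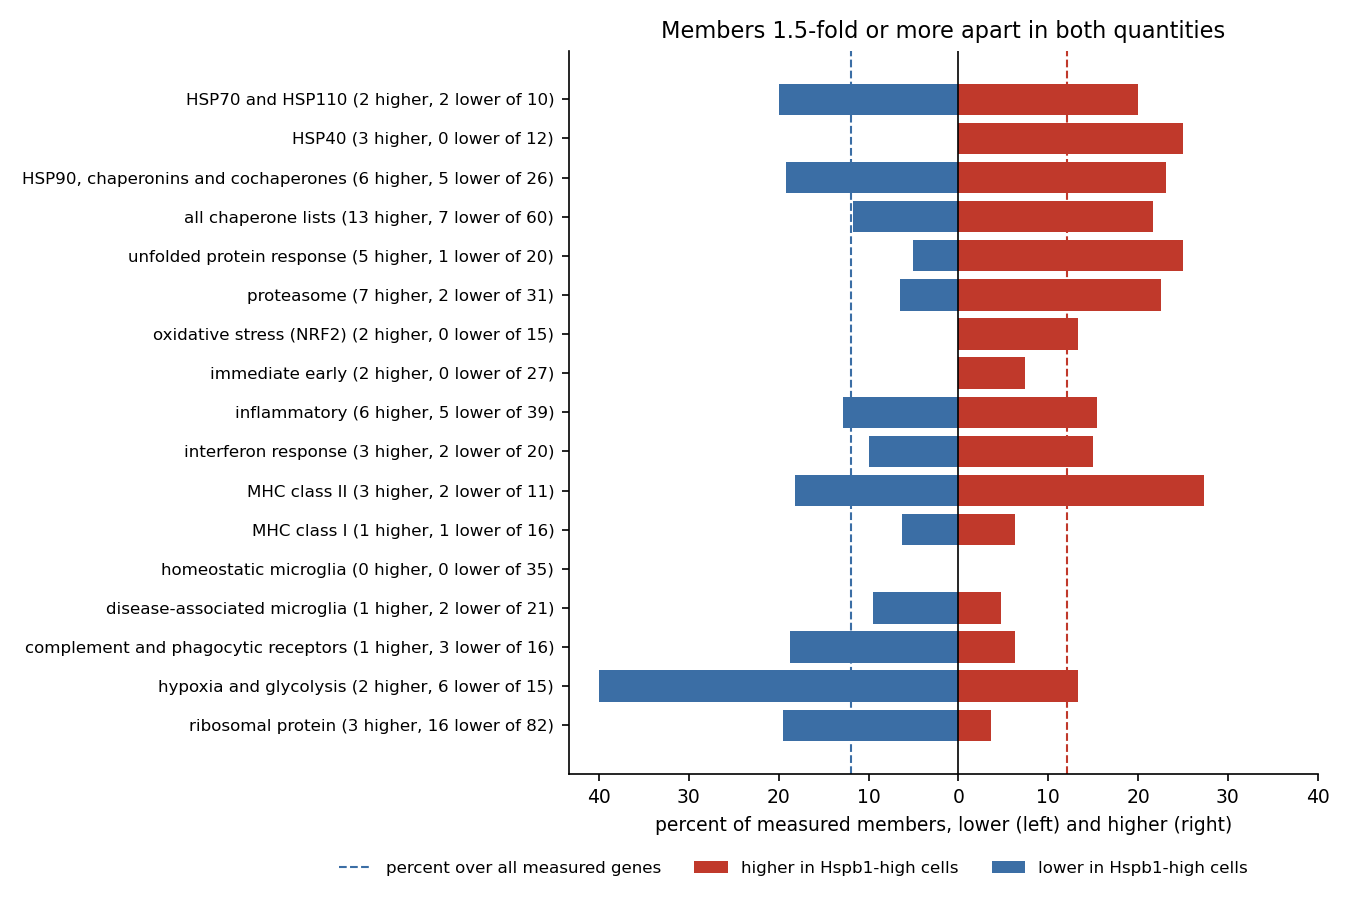
Percent of the measured members of 17 gene lists that were higher (red, right) or lower (blue, left) in Hspb1-high than in Hspb1-low A2M cells by 1.5-fold in both quantities, with counts in brackets. Dashed lines mark the percent over all 8692 measured genes, 12.1% higher and 12% lower. Homeostatic microglia genes gave 0 of 35, chaperones 13 and 7 of 60.

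Among other stress lists, 5 of 20 measured genes of the unfolded protein response were higher and 1 lower, 7 of 31 proteasome genes were higher and 2 lower, and 2 of 15 genes of the NRF2 oxidative stress list were higher and 0 lower. These shares of 25%, 22.6% and 13.3% higher stand beside 12.1% of all measured genes, and those of 5%, 6.45% and 0% lower beside 12%. Atf4, the transcription factor of the integrated stress response, ran from 0 to 1808 TPM in high cells with a median of 523 TPM, and from 0 to 1974 TPM in low cells with a median of 187.1 TPM. It was at 100 TPM or more in 24 of 26 high cells and 16 of 31 low cells. The cells between averaged 316 TPM, below the 368 TPM of low cells. Its target Ddit3, which encodes CHOP, averaged 493 TPM in high cells and 295 TPM in low cells. Xbp1, the factor spliced by IRE1, was lower, at 264.2 TPM in high cells and 408 TPM in low cells. Hspa5, the HSP70 of the endoplasmic reticulum, averaged 1729 TPM in high cells and 2196 TPM in low cells, a log2 ratio of -0.35.

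Of the proteasome genes, the ATPase subunit Psmc6 averaged 150.5 TPM in high cells and 39.3 TPM in low cells, and the core subunit Psmb3 averaged 232.2 TPM in high cells and 109.1 TPM in low cells. Psmd2 of the regulatory particle was lower, at 9.61 TPM in high cells and 50.5 TPM in low cells. Of 15 measured genes of glycolysis and hypoxia, 6 (40%) were lower, against 12% of all measured genes, and 2 (13.3%) were higher, against 12.1%. Ldha, lactate dehydrogenase A, had a median of 1.49 TPM in high cells (range 0 to 1295) and 233.4 TPM in low cells (range 0 to 1516). Pfkl, a phosphofructokinase, was at 1 TPM or more in 1 of 26 high cells and 8 of 31 low cells, while the glucose transporter gene Slc2a1 was higher, in 7 high and 2 low cells. The ribosomal protein list had 3 (3.66%) of 82 measured members higher and 16 (19.5%) lower, and its median log2 ratio was -0.17.

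Immediate early genes are transcribed within minutes of a stimulus. Of 27 measured, 16 had a median of 100 TPM or more in both classes and 7 a median below 1 TPM in both. Fos and Egr2 were higher (7.41%, against 12.1% of all measured genes) and 0 were lower, against 12%. Fos, a subunit of AP-1, ran from 642 to 18053 TPM in high cells with a median of 8272 TPM, and from 596 to 18550 TPM in low cells with a median of 4349 TPM. Every cell of both classes held it, and the ranges of the classes overlapped almost wholly. The log2 ratio was 0.64 and the log-mean difference 0.73. Dusp1, Atf3 and Jun had log2 ratios of 0.80, 0.36 and 0.08, without 1.5-fold in both quantities.

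Inflammatory genes were divided between the directions. Of 39 measured, 6 (15.4%) were higher and 5 (12.8%) lower, near the shares over all measured genes, and the median log2 ratio was 0.08. The chemokine genes Ccl3 and Ccl4 were among the most abundant of the list. Ccl4 ran from 5.04 to 58789 TPM in high cells with a median of 4572 TPM, and from 18.9 to 40264 TPM in low cells with a median of 4489 TPM. Ccl3 averaged 5196 TPM in high cells and 4363 TPM in low cells. Nfkbia, the inhibitor induced by NF-kB, averaged 4853 TPM in high cells and 4388 TPM in low cells. None of these 3 reached 1.5-fold in both quantities.

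The cytokine gene Il1a was higher, with values from 0 to 9300 TPM and a median of 528 TPM in high cells, and from 0 to 5597 TPM with a median of 407 TPM in low cells. Its log2 ratio was 0.66, and 0.55, within 1.5-fold, where the highest cell of each class was left out, which left means of 864 TPM in high cells and 591 TPM in low cells. Nfkbiz, a nuclear regulator of NF-kB, averaged 535 TPM in high cells and 346 TPM in low cells, and Cxcl2, a neutrophil chemokine gene, averaged 260.3 TPM in high cells and 93.9 TPM in low cells but was seen in 6 of 26 and 7 of 31 cells. Nlrp3 of the inflammasome averaged 101.2 TPM in high cells and 15.3 TPM in low cells, and was seen in 7 and 9 cells. In those with few positive cells the mean rests on those cells.

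The monocyte chemokine genes Ccl2 and Ccl12 were lower. Ccl12 ran from 0 to 8993 TPM in high cells with a median of 79.7 TPM, and from 0 to 47968 TPM in low cells with a median of 324 TPM. Ccl2 averaged 248.8 TPM in high cells and 769 TPM in low cells, and the cells between averaged 769.9 TPM. Cd14, the lipopolysaccharide coreceptor, had a median of 273 TPM in high cells (range 0 to 2616) and 571 TPM in low cells (range 4.64 to 5156). It was seen in 22 of 26 high cells and 31 of 31 low cells, and its log2 ratio was -0.64. Relb, an NF-kB subunit, was seen in 1 of 26 high cells and 9 of 31 low cells. Tnf averaged 268.5 TPM in high cells and 485 TPM in low cells but was not called lower. Its log-mean difference was -0.39, and its medians were 2.645 TPM and 4.1 TPM in that order. Il1b was above 1 TPM in 3 high and 4 low cells.

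**Figure D4:**
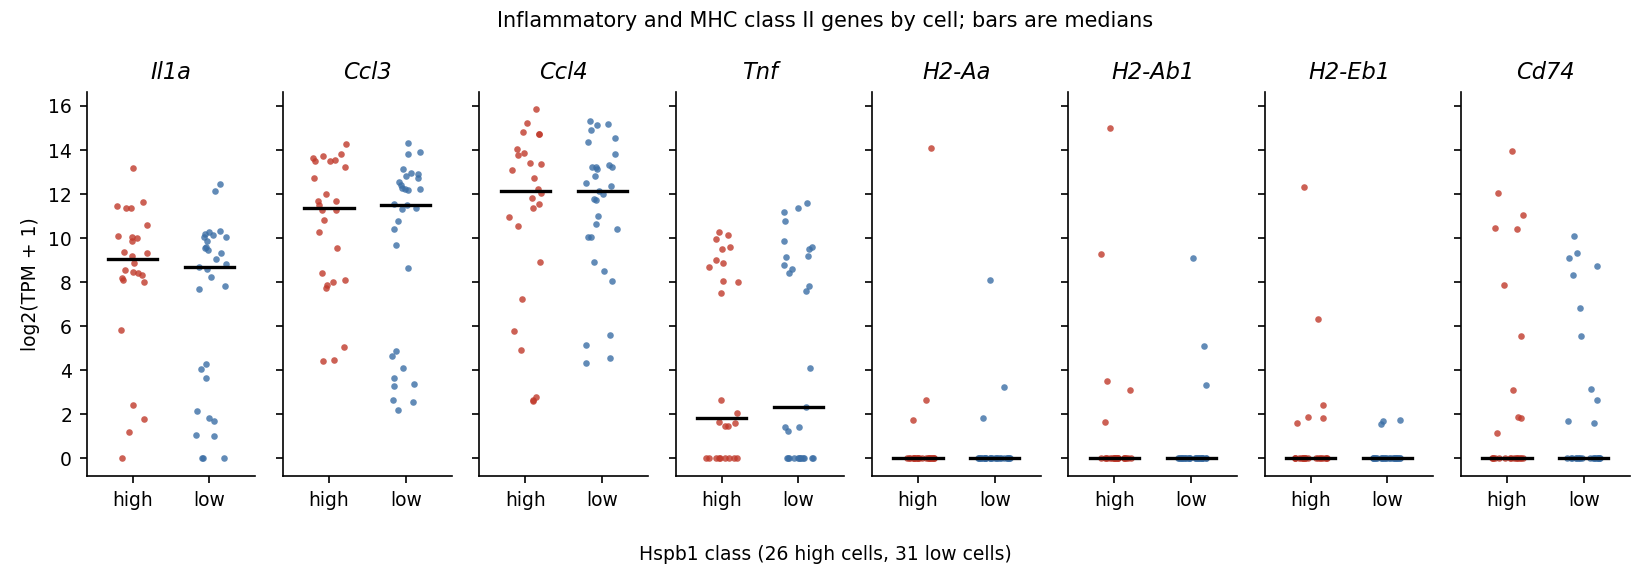
Expression of 4 inflammatory and 4 MHC class II genes as log2(TPM + 1) in each of 26 Hspb1-high cells (left, red) and 31 Hspb1-low cells (right, blue), with black bars at the medians. For the MHC class II genes the median is 0 in both classes, and the highest point in the high class is cell 64. It stands far above the rest for H2-Aa, H2-Ab1 and H2-Eb1. For Cd74 it holds 15912 TPM and the next high cell 4266 TPM.

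The MHC class II genes H2-Aa, H2-Ab1 and H2-Eb1, whose products present peptides to CD4 T cells, and Cd74 had a median of 0 in both classes, and 1 cell held most of the high-class total of each. Of 11 measured genes of the list, H2-Ab1, H2-Eb1 and Cd74 were higher, and H2-Oa and H2-Ob, which encode an inhibitor of peptide loading, were lower. These shares of 27.3% higher and 18.2% lower stand beside 12.1% and 12% of all measured genes. H2-Oa was seen in 2 of 26 high cells and 5 of 31 low cells, and H2-Ob in 1 and 5 cells. The cells between averaged 82.7 TPM for H2-Oa, above the 30.7 TPM of low cells, and 7.575 TPM for H2-Ob, below both classes. H2-Ab1 averaged 1267 TPM in high cells and 19 TPM in low cells, but cell 64 contributed 98.1% of the high-class total. Without it the mean of high cells was 25.6 TPM and the log2 ratio 0.41, against 5.99 with it. For H2-Aa, cell 64 held 17562 TPM, the next high cell 5.32 TPM and the highest low cell 271 TPM. Its log2 ratio was 6.07 with cell 64, -2.95 without it, and -0.06 where the highest cell of each class was left out.

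Cd74, the invariant chain, reached 100 TPM in 6 of 26 high cells and 6 of 31 low cells. It ran from 0 to 15912 TPM in high cells and from 0 to 1105 TPM in low cells, with a median of 0 in both. Without cell 64 its mean in high cells was 379 TPM, against 104.3 TPM in low cells, a log2 ratio of 1.85. H2-Eb1 reached 100 TPM in cell 64 alone. Without cell 64, 0 of the MHC class II genes were higher in both quantities. Ciita, the activator of class II transcription, was listed at 0 in all 83 cells, and H2-DMa, the peptide-loading chaperone chain, averaged 330.3 TPM in high cells and 352 TPM in low cells, with medians of 311 TPM and 281.7 TPM.

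No homeostatic microglia gene reached 1.5-fold in both quantities. Of 35 measured, 0 were higher and 0 lower, against 24.1% of all measured genes in either direction, and the median log2 ratio was -0.02. Of these genes 17 were seen in at least 90% of A2M cells, and among all genes seen that widely 4.52% were higher and 2.71% lower. The log2 ratios ran from -0.55 for Golm1 to 0.60 for Slco2b1, and 34 of the 35 lay within 1.5-fold in the ratio of means. By the log-mean difference alone, 3 lay beyond 1.5-fold above and 8 below, among them Golm1 at -1.70 and Sall1 at -1.02. Tmem119 had a median of 851 TPM in high cells (range 237.1 to 3229) and 1392 TPM in low cells (range 0 to 3083), a log2 ratio of -0.41. Cx3cr1, the fractalkine receptor, averaged 1834 TPM in high cells and 1660 TPM in low cells, and Csf1r, the receptor that microglia need to survive, averaged 965 TPM in high cells and 855 TPM in low cells. Sall1, a transcription factor of microglial identity, was seen in 22 of 26 high cells and 27 of 31 low cells, with means of 57.6 TPM and 83.6 TPM.

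**Figure D5:**
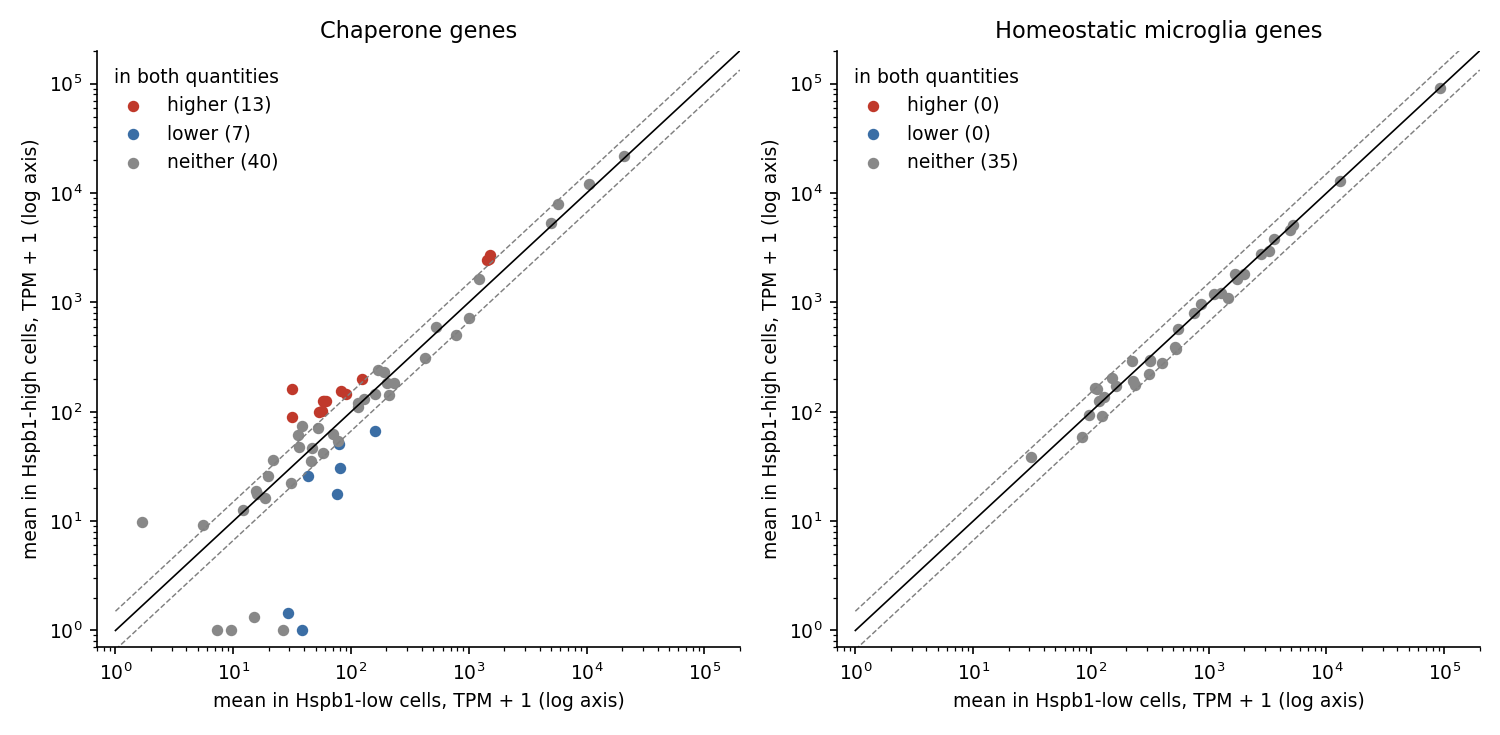
Mean TPM + 1 in 26 Hspb1-high cells against the mean in 31 Hspb1-low cells, on log axes, for 60 measured chaperone genes (left) and 35 measured homeostatic microglia genes (right). The solid line marks equal means, the dashed lines 1.5-fold, and colours show genes higher or lower in both quantities, 13 and 7 chaperones and 0 homeostatic genes. The homeostatic genes lie along the line of equal means.

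Of 16 measured genes for complement and phagocytic receptors, 1 (6.25%) was higher and 3 (18.8%) lower, against 12.1% and 12% of all measured genes. The complement gene C1qa averaged 6351 TPM in high cells and 6007 TPM in low cells. Of 21 measured genes of disease-associated microglia 1 (4.76%) was higher and 2 (9.52%) lower. Of 17 macrophage transcription factors Cebpa was higher and Irf8 lower, 5.88% each way. Irf8 ran from 0 to 671 TPM in high cells with a median of 209.8 TPM, and from 0 to 1057 TPM in low cells with a median of 332 TPM. The integrin subunit gene Itgb2 was at 1 TPM or more in 10 of 26 high cells and 23 of 31 low cells, with a log2 ratio of -0.97. Havcr2, the checkpoint receptor TIM-3, had a median of 168.2 TPM in high cells and 0.86 TPM in low cells and was seen in 17 of 26 and 12 of 31 cells.

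Of the genes seen in nearly every cell, those named here were chosen after their values were seen. Sgk1, a kinase induced by glucocorticoids and other stimuli, ran from 1.01 to 11553 TPM in high cells with a median of 1329.7 TPM, and from 1.36 to 3844 TPM in low cells with a median of 632 TPM. Its log2 ratio was 1.42, and its means were 2891 TPM in high cells, 1509.6 TPM in the cells between and 1076 TPM in low cells. Wsb1, a ubiquitin ligase subunit, had a median of 573 TPM in high cells (range 0.79 to 1278) and 149.4 TPM in low cells (range 0 to 1384). Rgs2, a regulator of G-protein signalling, averaged 1506 TPM in high cells and 778 TPM in low cells. St3gal6, a sialyltransferase, averaged 663 TPM and 328 TPM in the same order.

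The 10 largest ratios in each direction, among genes with a mean of 50 TPM and 1 TPM in 25% of the cells of the class where they were higher, belonged to genes seen in a minority of cells in most cases. Tsen34, a tRNA splicing endonuclease subunit, was seen in 13 of 26 high cells and 3 of 31 low cells, with means of 171.8 TPM and 20.1 TPM. Exoc6 of the exocyst was seen in 8 high cells and 2 low cells, with means of 82.9 TPM and 1.26 TPM. In the other direction Get4, which takes part in the insertion of tail-anchored proteins, was seen in 2 high cells and 11 low cells, with means of 8.51 TPM and 100.8 TPM. Glrx2, a mitochondrial glutaredoxin, was seen in 1 high cell and 9 low cells, with means of 0.0869 TPM and 60.5 TPM. The others were Cd74, Glipr1, Bet1l, Flii, Gnpda2, Syap1, Rnpepl1 and Cfap20 among those higher, and Tmbim1, Ctbs, Zfp959, Bckdha, Ppp1r12c, Relb, Pfkl and Fkbp8 among those lower.

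The same division could be made in 3 other sets, all with single reads, that held at least 5 cells in each class. They were whole-brain adult, with 12 high cells, hippocampal P14, with 5, and thalamic P14, with 7. Low cells made up 91.9%, 93.2% and 95.3% of these sets in that order. These cells were not among those used to form the A2M classes. Hspa1b averaged 499 TPM in high cells and 198.3 TPM in low cells of the adult whole brain, 246.2 TPM and 48.4 TPM in P14 hippocampus, and 90.3 TPM and 54.2 TPM in P14 thalamus. It was at 1 TPM or more in 12 of 12 high cells and 62.6% of low cells of the adult whole brain, in 5 of 5 high cells and 31 of 110 low cells in P14 hippocampus, and in 4 of 7 high cells and 22.1% of low cells in P14 thalamus. Hspa1a was higher in mean in the high cells of each set as well, at 463 against 274 TPM in low cells, 429 against 61.2 TPM and 139.9 against 107.1 TPM in the same order of sets.

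Not all genes followed. Hsph1 was at 0 in all 5 high cells of P14 hippocampus, against a mean of 23.7 TPM in low cells, and Dnajb1 averaged 51.1 TPM in high cells and 185.6 TPM in low cells of the adult whole brain. Sgk1 averaged 769.5 TPM in high cells and 1770.2 TPM in low cells there. Of the chaperone genes measured in each set, 10 of 56 were higher and 2 lower in adult whole brain, where 13.9% of all genes were higher and 9.67% lower. In P14 hippocampus 18 of 59 were higher and 18 lower, with 19.3% and 26.4% of all genes, and in P14 thalamus 14 of 57 were higher and 4 lower, with 21% and 13.4%. Homeostatic genes gave 7 higher and 2 lower of 35 in adult whole brain and 4 higher and 5 lower of 34 in each P14 set.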

How the data were processed

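Per the labels' protocols and the series text, cells were sorted and captured singly (Fluidigm C1), and libraries were built with Nextera XT. The authors deposited 1 table of TPM over 43280 genes and 1617 cells, all of whose columns were used. Per the submitters' processing notes, RSEM 1.2.19, Seurat and the GRCm38 build were used. For the aligner, the annotation and the filters on cells, the sources used here give nothing. TPM keeps no read depth and the protocols name no molecular identifiers, so depth per cell is unknown, and intervals cover counting error over cells only. No doublet caller was run, and no 2 cells had identical values. Hspa1a and Hspa1b are near-identical, as are Hspb1 and Hsp25-ps1, and counting could split their reads.

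Classes were formed from Hspb1 in the same table (100 TPM or more, below 1 TPM). Means of TPM and of log2(TPM + 1) were compared by class, with a pseudocount of 1 TPM, a minimum mean of 5 TPM in either class and 1.5-fold in both quantities. The cells are not replicates and each class is 1 sample of unnamed animals, so no test was run. The members, gene lists and rules were chosen with earlier results of these data known. Genes were named by rule: small heat shock proteins above 0, up to 4 measured genes a list by size of ratio (8 for the main lists), and the 10 largest ratios in each direction at a mean of 50 TPM and 25% of cells. Other genes were chosen after their values were seen, among them Hspa1a, P2ry12, Sgk1, Wsb1, Rgs2, Apoe, Lyz2 and Hsp25-ps1. Positions came from GENCODE M21 and promoters from RefSeq on GRCm38.p6. The work ran in Python 3.11.15 with pandas 2.3.3, matplotlib 3.10.9, scipy 1.17.1 and numpy 2.4.6, and the scripts were tested on simulated data.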

Additional observations from a re-analysis of the deposited data

How the results depend on the processing

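The results were recomputed under 15 other settings. Those without cell 64, cell 83 or both were chosen after seeing the data. Across them 1066 to 1132 genes were higher and 1025 to 1071 lower. The chaperone lists had 10 to 13 genes higher and 8 to 10 lower, the MHC class II list 0 to 3 higher, and the homeostatic list 0 to 1 lower. With the ratio of means alone, 2600 genes (29.9%) were higher and 2968 (34.1%) lower. Of 60 chaperone genes 18 were then higher and 12 lower, and of 11 MHC class II genes 4 and 4. Of 39 inflammatory genes 8 were higher and 11 lower, and of 35 homeostatic genes 1 and 0. At 2-fold, 306 genes were higher and 312 lower, with 5 chaperone genes higher and 4 lower, 0 MHC class II genes either way, and 0 inflammatory genes higher and 3 lower. A pseudocount of 10 TPM gave 422 higher and 413 lower, with 4 chaperone genes lower and 1 MHC class II gene higher and 0 lower. A pseudocount of 0.1 TPM gave 1622 genes lower, 8 of them inflammatory. Chaperone genes higher at 10 TPM and genes higher at 0.1 TPM are not given here, so no direction can be read. With the highest cell of each class left out for each gene, 1 MHC class II gene was higher, and 1 homeostatic gene was higher and 1 lower. Median-ratio rescaling gave 2 homeostatic genes lower and moved the median log2 ratio of all measured genes to -0.11. With the low class taken below 10 TPM, the log2 ratios of Batf3 (-0.29) and Eif2ak3 (-0.18) and the dendritic cell median (-0.29) changed sign. The median log2 ratio of border-associated macrophage genes was -3.25, and lay between -3.70 and 1.30 without cell 64, cell 83 or both, the positive value being that without cell 83. The cause of these changes was not tested. No paired analysis was possible because both classes come from 1 labelled group and no number pairs their cells. The classes held 26 and 31 cells, and a gene seen in few of them has a mean set by those cells.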
